A study of Mus musculus with 6 samples.

Results

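Ligands and receptors that set the tone of small vessels were followed in the Gli1-lineage cells of the adult mouse ovary that the labels call theca, the layer of steroid-producing and contractile cells around a follicle. The set held 10 genes of the endothelin, angiotensin, natriuretic peptide and prostaglandin E systems, chosen by name, and every array probe set whose single gene symbol was among them was taken. This gave 17 probe sets for 9 genes, of 45037 probe sets for 18193 named genes in all. The endothelin receptor Ednra is the remaining gene, and it was not analysed here.

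Endothelin is cut from a larger precursor by a converting enzyme and acts on A receptors, which drive contraction of smooth muscle, and on B receptors, which release dilators from endothelium, clear the peptide and can also contract muscle. Angiotensin contracts vessels through its type 1 receptor, and the type 2 receptor often opposes it. Natriuretic peptides raise cyclic GMP through receptors that are themselves guanylyl cyclases, while prostaglandin E acts through receptors that lower or raise cyclic AMP. In the ovary these systems are known from the vascular theca, from follicle growth and from ovulation, and C-type natriuretic peptide from granulosa cells holds the oocyte in meiotic arrest through the receptor Npr2.

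All samples came from female mice of strain 129S6/SvEvTac that carried Gli1-CreERT2 and Rosa-LSL-tdTomato. In such mice, cells that express Gli1 while tamoxifen is present gain a lasting red label, so the sorted cells are the descendants of any cell that had Gli1 on at that time. The mesonephros-derived group (3 samples) received tamoxifen before birth, first at E12.5, then E14.5 and finally E16.5. The ovary-derived group (3 samples) was exposed on postnatal days 1 to 3 through the lactating dam. Cells were sorted for tdTomato from ovaries at 2 months of age, and the comparison asks how the adult cells of the 2 labellings differ. Origin and tamoxifen timing differ together between the groups and cannot be told apart.

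The arrays were not equally uniform. On the log2 scale, ovary-derived arrays correlated with each other at 0.963 to 0.973 and mesonephros-derived ones at 0.844 to 0.896. Relative to the mean of the ovary-derived arrays, poly-A spike controls were 11.7, 11.6 and 2.28 times as bright on the mesonephros-derived arrays, in replicate order. Among the ovary-derived ones they ranged from 0.720 to 1.63. Spike brightness thus followed the group, and a fit with it as a covariate separates spike from group poorly. The Gapdh 3′ to 5′ signal ratio, a measure of RNA integrity, was 5.29, 3.48 and 2.63 in the same order, against 1.94 to 2.86. Of the markers fixed for theca, Cyp17a1, Cyp11a1, Star, Hsd3b1, Nr5a1, Fdx1 and Scarb1 were measured and lay above the floor on all 6 arrays, while Insl3 and Lhcgr were not analysed here. Among these 7, mesonephros-derived cells had the higher mean for 5 and limma called 0 at the threshold used below, with a median log2 difference of 0.86. Without mesonephros-derived replicate 1, as with array weights, 3 were called, where 58 and 129 of all 11703 genes were. Without replicate 2 the median was 0.45. The floor is a signal of 99.4, the 40th percentile of all probe set means taken on the log2 scale, below which a gene was not tested. Of 12 granulosa markers 7 also had a mean above the floor, 6 of them higher in mesonephros-derived cells and 0 called, or 3 of 7 higher with the spike controls as a covariate. Foxl2, a granulosa transcription factor, gave signals of 3434 to 5330.0. The other 5 had means below the floor and were not tested. Of these Amh, a granulosa hormone, read 511, 234 and 33.4 against 20.7 to 34.7. Nr5a2 went the other way, at 16.2, 66.3 and 15.6 against 95.3 to 244, and Inhbb and Fst had log2 differences of −1.28 and −0.26. The granulosa receptor Fshr stayed at 6.02 to 29.0. None of 9 epithelial markers and 1 of 10 oocyte markers had a mean above the floor. Lists of smooth muscle, endothelial and macrophage markers differed between arrays and are given beside the members below.

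**Figure D1:**
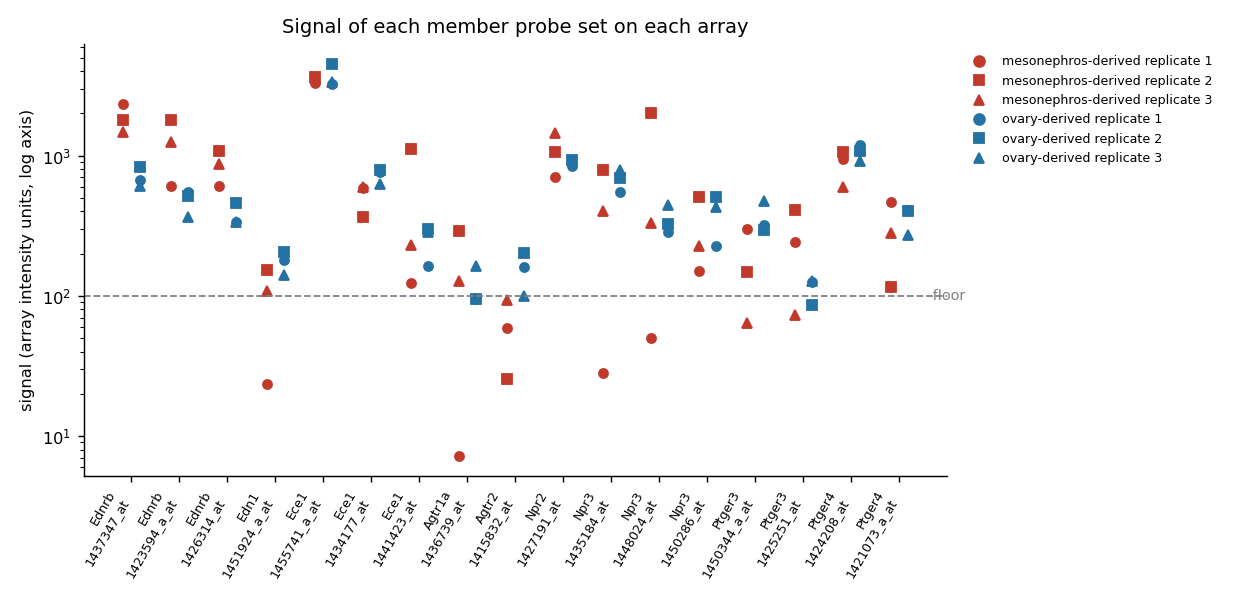
Signal on a log axis of all 17 member probe sets on each of the 6 arrays, red for mesonephros-derived and blue for ovary-derived cells, with the replicate as the symbol and the floor of 99.4 as a dashed line. The 3 Ednrb probe sets are the only ones in which every red point lies above every blue one.

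Of the 9 genes, 7 had a mean above the floor and were tested. With limma, 0 of the 7 passed an adjusted p of 0.05, where 0.0427% of the 11703 genes tested did. At an unadjusted p of 0.05 there were 2, Ednrb and Ptger3, against 13.7% of all genes. Groups did not overlap for Ednrb alone, against 22.2% of all genes. By direction, 2 members stood higher in mesonephros-derived cells and 5 lower, with a median log2 change of −0.32 beside −0.08 for all genes. Over probe sets, 0 of 15 tested passed, where 0.0148% of 27022 did, 4 had an unadjusted p under 0.05 (12.9% of all) and 4 did not overlap (21.3% of all). All changes below are mesonephros-derived minus ovary-derived on the scale log2(signal + 16), which understates the change of dim genes.

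Ednrb, the endothelin B receptor, was the only tested member whose groups did not overlap on the probe set used for the gene. Its brightest probe set read 2340.4, 1788 and 1481 in mesonephros-derived replicates 1, 2 and 3, and 669, 824 and 605 in the ovary-derived replicates. Every mesonephros-derived array thus lay above every ovary-derived one, with means of 1869.6 ± 436 and 699 ± 113 (SD, n = 3 each). The difference was 2.61-fold, a log2 change of 1.38 ± 0.25 (SE, limma), with a 95% interval of 0.81 to 1.96. Its unadjusted p of 0.000409 ranked 38 among 11703 genes, and the adjusted p was 0.126 in limma, so it did not pass.

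The other Ednrb probe sets went the same way. Probe set 1423594_a_at read 604, 1810.1 and 1261 against 546, 517 and 367, a log2 change of 1.22 ± 0.40 (SE). Probe set 1426314_at read 611, 1086 and 874 against 334, 463 and 334, a change of 1.13 ± 0.32. The groups stayed apart in both, but the order within the mesonephros-derived group changed: replicate 1 was the highest on the brightest probe set and the lowest on the other 2, where on 1423594_a_at it came close to ovary-derived replicate 1. Adjusted p-values over all probe sets were 0.160, 0.305 and 0.272 (limma).

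The Ednrb change stayed positive when any 1 array was left out, at 1.21 to 1.54, with limma adjusted p-values of 0.0659 to 0.647. It passed with arrays weighted by their noise, at 1.13 ± 0.25 (SE, limma adjusted p = 0.0447). With these weights 129 of the 11703 genes passed, against 5 in the main fit. Adding the spike controls to the model as a covariate gave 1.04 ± 0.48 (SE, limma adjusted p = 1.00). Spike brightness moved with the group and that model called 0 of the 11703 genes, so its adjusted p says nothing particular to Ednrb. Probe set 1423594_a_at passed without mesonephros-derived replicate 1, at 1.65 (limma adjusted p = 0.0498). Without that array 58 of the 11703 genes passed in the fit over genes.

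Edn1, the endothelin-1 precursor that endothelium is the main source of, was dim. Its only probe set read 23.6, 152 and 108 in mesonephros-derived replicates 1, 2 and 3, and 179, 206 and 141 in the ovary-derived ones. Replicate 1 was below the floor, replicate 3 just above it, and replicate 2 within the ovary-derived range. In log2 units the groups differed by −1.02 ± 0.58 (SE, adjusted p = 0.459 in limma), with a 95% interval of −2.34 to 0.30. Without mesonephros-derived replicate 1 the difference was −0.40.

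Ece1, the enzyme that cuts endothelin from its precursor, was bright and nearly level. Its main probe set read 3301, 3656 and 3566 against 3268, 4533 and 3359.6, a log2 difference of −0.07 ± 0.19 (SE, adjusted p = 0.891 in limma). The 95% interval on this probe set ran from −0.50 to 0.36. Probe set 1434177_at read 589, 365 and 600.4 against 765, 794 and 626, without overlap, at −0.50 ± 0.30. Probe set 1441423_at stood at 0.40 ± 0.70, with 1122 in mesonephros-derived replicate 2 and 124 to 299 on the other 5 arrays. The 3 probe sets therefore did not share a direction.

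**Figure D2:**
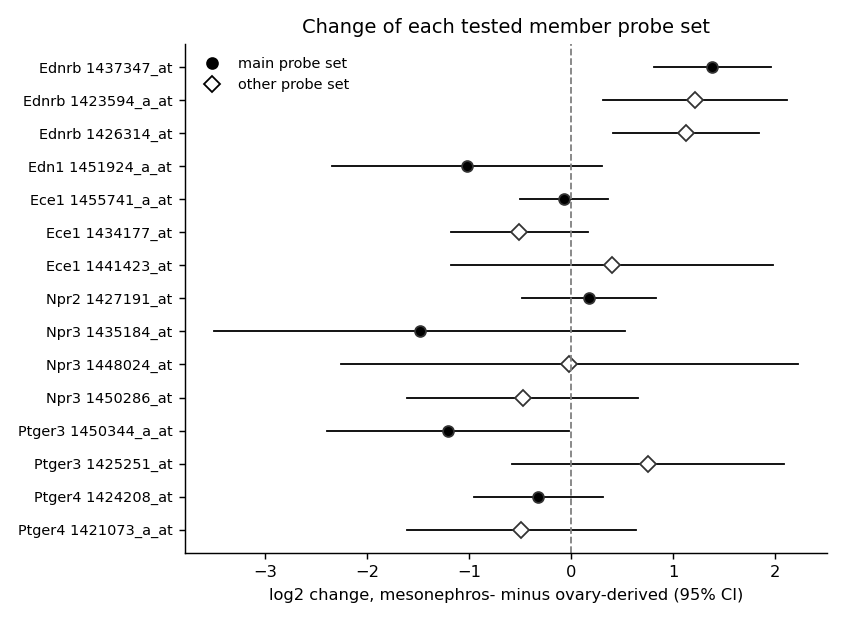
Log2 change, mesonephros-derived minus ovary-derived, of the 15 tested member probe sets, with 95% intervals from limma; filled circles are the probe set used for the gene and open diamonds its others. The 3 Ednrb intervals lie wholly above 0, that of Ptger3 1450344_a_at only just below it, and the other 11 include 0.

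The angiotensin receptors were at the limit of the measurement, and neither reached the mean on the log2 scale that was needed for a test. Agtr1a, the type 1a receptor that mediates contraction, read 7.15, 288 and 128 in mesonephros-derived replicates 1, 2 and 3, and 94.7, 95.5 and 163 in the ovary-derived ones. The groups overlapped, with both the lowest and the highest value in the mesonephros-derived group. Agtr2, the type 2 receptor, read 59.3, 25.3 and 92.8 against 162, 202 and 100.4. The floor separated the groups, with the 3 mesonephros-derived arrays under it and the 3 ovary-derived ones over it, the last by a narrow margin. Taking the floor in place of the dim arrays, Agtr2 was at least 1.43-fold lower in mesonephros-derived cells, a bound that was not tested.

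Npr2, the guanylyl cyclase receptor for C-type natriuretic peptide, was well measured. It read 707, 1056 and 1447 in mesonephros-derived replicates 1, 2 and 3, and 847, 936 and 938 in the ovary-derived ones. The ovary-derived values fell inside the mesonephros-derived range, and the log2 difference was 0.18 ± 0.29 (SE, adjusted p = 0.806 in limma; 95% interval −0.48 to 0.84).

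Npr3, the receptor that clears natriuretic peptides and has no cyclase of its own, varied most between the mesonephros-derived arrays. Its main probe set read 28.2, 794 and 401 there, and 548, 698 and 796 in ovary-derived cells. Probe set 1448024_at read 50.4, 2000.1 and 330.3 against 283, 328 and 448, and probe set 1450286_at read 151, 506 and 226 against 228, 506 and 429. On all 3 probe sets replicate 1 was the lowest array and replicate 2 was the highest of its group. The log2 changes were −1.48 ± 0.90, −0.01 ± 0.99 and −0.47 ± 0.50 (SE), with limma adjusted p-values of 0.497 to 0.996 over probe sets. Without mesonephros-derived replicate 1 the main probe set stood at −0.25, and without replicate 2 at −2.34.

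Ptger3, the prostaglandin E receptor that lowers cyclic AMP, gave 2 different answers. The main probe set read 298, 148 and 64.5 in mesonephros-derived replicates 1, 2 and 3, and 318, 294 and 477 in the ovary-derived ones. Replicate 1 overlapped the ovary-derived range and the other 2 lay below it, for a log2 difference of −1.21 ± 0.52 (SE, adjusted p = 0.361 in limma). Without replicate 3 it stood at −0.71. Probe set 1425251_at read 242, 413 and 73.5 against 126, 85.5 and 127, on the other side of 0 at 0.75 ± 0.59. The mean of the 2 probe sets stood at −0.23.

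Ptger4, the receptor that raises cyclic AMP, overlapped on both of its probe sets. The main one read 949, 1062 and 596 against 1189, 1079.6 and 922, a log2 difference of −0.32 ± 0.28 (SE, adjusted p = 0.621 in limma; 95% interval −0.95 to 0.31), or −0.07 without mesonephros-derived replicate 3. Probe set 1421073_a_at stood at −0.49 ± 0.50, with 115 to 464 in mesonephros-derived and 270.4 to 408 in ovary-derived cells.

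Receptors that share a ligand were also compared within each array, as the log2 difference between their main probe sets. Where both signals are bright, that difference depends little on how arrays are scaled. Where a signal is dim, as for Agtr1a, Agtr2 and Npr3 on some arrays, scaling and the constant added to the signal do affect it. The group difference in Npr2 minus Npr3 was 1.86 with a constant of 1 and 1.32 with 64. For 3 arrays against 3 the exact two-sided permutation test cannot go below p = 0.1. Npr2 minus Npr3 came to 4.03, 0.40 and 1.81 on the mesonephros-derived arrays, in replicate order, against 0.61, 0.41 and 0.23 on the ovary-derived ones. The groups differed by 1.66 ± 1.06 (SE, exact p = 0.3), by 0.69 without mesonephros-derived replicate 1, by 2.50 without replicate 2, and by 0.84 with each gene as the mean of its probe sets. Ptger3 minus Ptger4 differed by −0.89 ± 0.51 (SE, exact p = 0.3), and Agtr1a minus Agtr2 by 0.87 ± 1.41 (SE, exact p = 0.7), the latter from dim probe sets and −0.31 without mesonephros-derived replicate 2. Adjusted over the 3 pairs the exact p-values were 0.45, 0.45 and 0.7. Ednrb had no partner to compare.

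**Figure D3:**
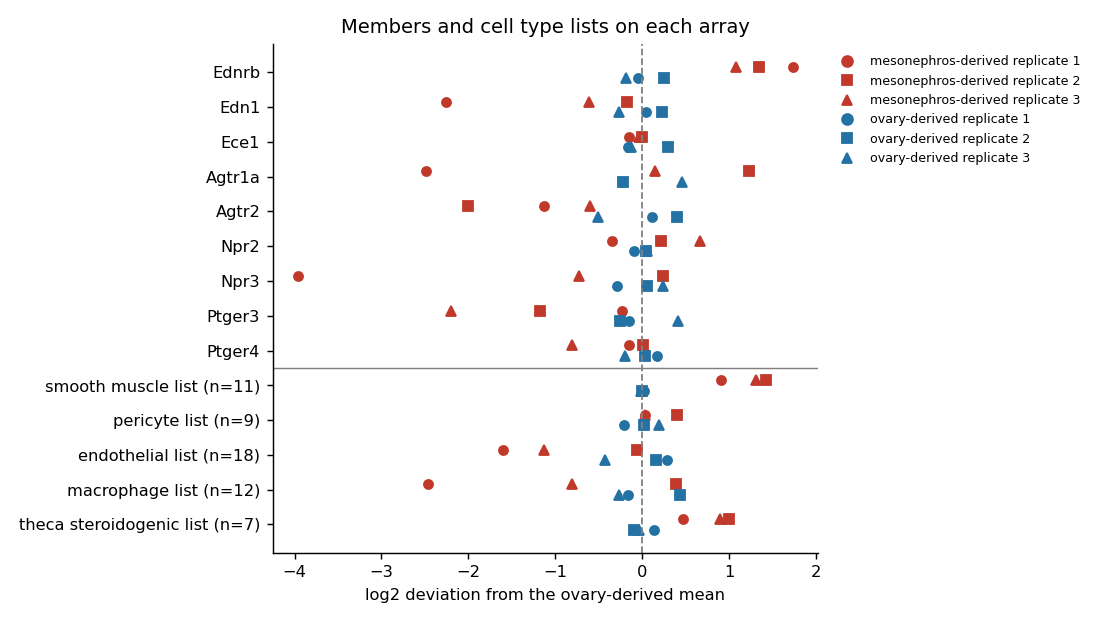
Log2 deviation from the ovary-derived mean on each array, for the main probe set of the 9 members (top) and for the mean of 5 cell type marker lists (bottom). Ednrb and the smooth muscle, theca steroidogenic and pericyte lists lie to the right of 0 on all 3 mesonephros-derived arrays. The pericyte list does so by only 0.034 in replicate 1 and 0.035 in replicate 3. Edn1, Agtr1a, Npr2, Npr3, and the endothelial and macrophage lists reach their lowest point in mesonephros-derived replicate 1.

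Several cell types of the ovary use these genes, so their markers were set beside the members. Smooth muscle markers had a summed signal of 73920 to 90463 in mesonephros-derived and 31109 to 34949.6 in ovary-derived cells, and 11 of 11 stood higher, 2 of them past the threshold (Myh11 and Tagln). All 11 stayed higher with any array left out. Of them 6 were called without mesonephros-derived replicate 1 and with array weights, where 58 and 129 of all 11703 genes were. Without replicate 2 and after median centring 1 was called in each, of 3 and 2 genes in all. Without replicate 3, without any 1 ovary-derived array or with the spike covariate 0 were called, as were 0 of all 11703 genes. On average the 11 markers deviated from the ovary-derived mean by 0.90, 1.42 and 1.30 log2 units on the 3 mesonephros-derived arrays, in replicate order. Ednrb stood at 1.73, 1.35 and 1.08 on the same arrays, and its other probe sets at 0.35, 1.91 and 1.39 and at 0.69, 1.5 and 1.20. The theca steroidogenic markers deviated there by 0.47, 1.0 and 0.89 on average, and the pericyte markers by 0.034, 0.39 and 0.035. Of 9 pericyte markers 8 stood higher, with a median log2 change of 0.28, and 6 of 9 after quantile normalization. The share was 5 of 9 when either mesonephros-derived replicate 2 or ovary-derived replicate 1 was left out. The spike covariate gave 4 of 9 and a median of −0.31. Their summed signal was 28706 to 40858 against 21088 to 28599. In a bulk sample, fewer cells of a type and less RNA per cell cannot be told apart, and the part these markers play in the Ednrb values was not tested.

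Endothelial markers stood lower for 14 of 16 tested, with a median log2 change of −0.80. Of the 16, 0 were past the threshold and 4 had an unadjusted limma p under 0.05, against 13.7% of all genes. The median was −0.52 (12 of 16 lower) without mesonephros-derived replicate 1 and −1.35 without replicate 2. Array weights, which called 129 of all 11703 genes, called 2 of these markers. Their signals summed to 5655, 13457 and 7142 on the mesonephros-derived arrays, in replicate order, and to between 9333 and 14385 on the ovary-derived ones. Kdr, a vascular growth factor receptor, read 9.91, 459.8 and 90.3 on those arrays against 394 to 1139. Macrophage markers were lower for 9 of 9 tested, with 0 past the threshold. Of the 9, 3 had an unadjusted limma p under 0.05, against 13.7% of all genes. Their summed signal was 1434, 13486 and 4020.1 against 5831 to 9216, and their median log2 change −1.06. Without mesonephros-derived replicate 1 the list stood at 4 higher and 5 lower with a median of −0.13. The median was −2.0 without replicate 2, and the spike covariate left 3 higher and 6 lower. Csf1r, the receptor for their main growth factor, had the largest change of the 9 tested and read 2.81, 615 and 461 against 1059.9 to 1583. C1qb and C1qc, complement subunits, and Lyz2, a lysozyme, peaked in replicate 2 at 5589, 2043 and 3024, above every ovary-derived array, and had the higher mean signal in mesonephros-derived cells. None of the endothelial or macrophage markers read exactly 0, but Tie1 and Plvap, and Cd163, Fcgr1 and Itgam, had means below the floor. Edn1 deviated by −2.26, −0.18 and −0.62 log2 units and Npr3 by −3.96, 0.23 and −0.72 on the 3 mesonephros-derived arrays, next to −1.61, −0.06 and −1.14 for the endothelial and −2.47, 0.39 and −0.80 for the macrophage list. Replicate 1 was the lowest and replicate 2 the highest for all 4. Agtr1a, too dim to test, had the same order at −2.49, 1.22 and 0.14, and Npr2 was also lowest in replicate 1, at −0.35. Replicate 1 also had the highest Gapdh ratio, at 5.29. The part of these cell types and of RNA quality in the Edn1 and Npr3 values was not tested.

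Over the 6 arrays the genes with the profile most like Ednrb were Spop, an adaptor of ubiquitin ligases, Ptges3l and Mtor, a kinase of growth control, at Pearson r of 0.996, 0.992 and 0.991. Sdf2, Marchf5 and Pard3 were nearest to Edn1 at 0.999, 0.996 and 0.995. Trim30d, Scamp1 and Ccl11, an eosinophil chemokine, were nearest to Ptger3 at 0.986, 0.984 and 0.979. With 6 arrays such values are common: 295, 740 and 62 tested genes reached an r above 0.9 with Ednrb, Edn1 and Ptger3. These profiles share arrays and scaling and are given as a description.

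The other genes of the 4 systems were counted from lists that hold none of the members. Over all genes tested 13.7% had an unadjusted p under 0.05 and 22.2% did not overlap, and the genes named are those with the smallest p of each list. In the endothelin list 8 of 12 tested genes stood higher and 4 lower. With limma 0 passed and 1 had an unadjusted p under 0.05, Ece2, a second converting enzyme, at 154, 22.4 and 562 against 628, 594 and 518. It differed by −1.93 ± 0.82 log2 units (SE, adjusted p = 0.357 in limma), or by −2.88 to −0.92 with 1 array left out, turned to 0.91 with the spike covariate, and its other probe set stood at −0.73. Gna11, a G protein that couples endothelin receptors to calcium release, was level at 0.12 ± 0.19, with another probe set at −0.22. Plcb1 and Gna12, a phospholipase and a G protein of the same signalling route, stood at 0.81 ± 0.45 and 0.28 ± 0.32, each with other probe sets on the other side of 0, and Gna12 at −0.096 to 0.48 with 1 array left out. The list stood at 10 higher and 2 lower after median centring, at 5 and 7 without mesonephros-derived replicate 2, and at 6 and 6 with the spike covariate, these last with medians of −0.01 and −0.04.

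In the renin and angiotensin list 6 of 10 tested genes stood higher, 0 passed (limma), and 4 had an unadjusted p under 0.05, all without overlap between the groups (13.7% and 22.2% of all genes). Without mesonephros-derived replicate 1 the list stood at 5 higher and 5 lower. Enpep, the aminopeptidase that degrades angiotensin II, read 4601, 1944 and 2897 against 7613, 5395 and 5136, −1.0 ± 0.31 in log2 units (SE, adjusted p = 0.270 in limma). Rgs5, which damps signalling of contractile receptors and also marks pericytes, read 16231, 16044 and 13235 against 6565, 8725 and 10781, at 0.83 ± 0.21 (limma adjusted p = 0.229). Rgs2, a damper of angiotensin and endothelin signals, stood at 0.77 ± 0.26, or 0.48 to 0.98 with 1 array left out. Atp6ap2, the prorenin receptor and a proton pump subunit, stood at 0.57 ± 0.18, with another probe set at −0.59. All 4 Rgs5 probe sets and all 4 Rgs2 probe sets pointed the same way.

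In the natriuretic peptide and cyclic GMP list 10 of 15 tested genes stood higher, 0 passed (limma), and 4 had an unadjusted p under 0.05. Npr1, the receptor for atrial natriuretic peptide, read 32.6, 59.7 and 77.6 in mesonephros-derived and 174, 235 and 284 in ovary-derived cells. The former were all below the floor, so it was at least 2.10-fold lower (limma adjusted p = 0.229). Pcsk6, a protease of precursor proteins, stood at −1.40 ± 0.40 (SE). Prkg2, a kinase activated by cyclic GMP, was below the floor in all ovary-derived cells and at least 1.49-fold higher in mesonephros-derived ones (limma adjusted p = 0.361). Gucy1a1, a subunit of the nitric oxide receptor, stood at 0.48 ± 0.21, with other probe sets at −0.10 and −0.30. Nppc, the ligand of Npr2 and a granulosa product, read 87.9 to 185 in mesonephros-derived and 80.2 to 143 in ovary-derived cells, at 0.21 ± 0.45, and was named here outside the naming rule.

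In the prostaglandin E list 8 of 17 tested genes stood higher and 9 lower, turning to 9 and 8 after quantile normalization and to 12 and 5 with array weights or without mesonephros-derived replicate 1. With limma 0 passed and 2 had an unadjusted p under 0.05. Ptges, the synthase of prostaglandin E, read 692, 1146 and 1155 against 1738, 1719 and 2071, without overlap, at −0.91 ± 0.26 (SE, limma adjusted p = 0.254), and its other probe sets stood at −0.89 and −0.29. Gnas, the G protein that raises cyclic AMP, stood at 0.57 ± 0.23, or 0.34 to 0.72 with 1 array left out, and −0.047 with the spike covariate. Adcy7, an adenylyl cyclase, and Gnai2, a G protein that inhibits such enzymes, stood at 0.46 ± 0.26 and 0.27 ± 0.17, or as low as 0.15 and 0.16 with 1 array left out, Adcy7 with other probe sets at −0.13 and −0.61.

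**Figure D4:**
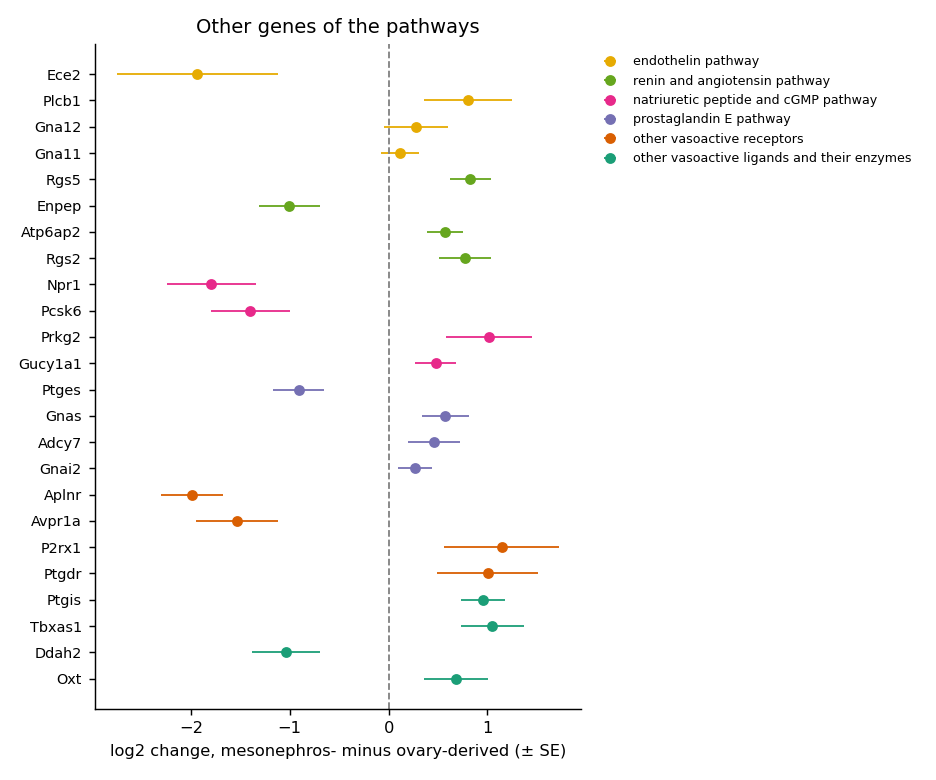
Log2 change, mesonephros-derived minus ovary-derived, with its SE from limma, of the 24 other pathway genes picked as the 4 with the smallest p in each list, coloured by list. The lowest is Aplnr at −1.99 and the highest P2rx1 at 1.14, and none passed an adjusted p of 0.05.

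Receptors of further vasoactive ligands gave 7 of 18 tested genes higher and 11 lower, or 9 and 9 after quantile normalization or median centring. The direction turned to 10 higher and 8 lower without mesonephros-derived replicate 1 and to 12 and 6 with the spike covariate. With limma 0 passed and 2 had an unadjusted p under 0.05, Aplnr and Avpr1a. Aplnr, the apelin receptor of vessels, read 918, 875 and 1112 in mesonephros-derived against 5925, 3991 and 2455 in ovary-derived cells, −1.99 ± 0.31 in log2 units (SE, adjusted p = 0.0865 in limma). Another Aplnr probe set stood at −2.30. Aplnr passed with array weights and without mesonephros-derived replicate 1, settings that called 129 and 58 of all 11703 genes. Avpr1a, a vasopressin receptor, was below the floor in all mesonephros-derived cells and at least 2.09-fold lower (limma adjusted p = 0.246). P2rx1, an ATP-gated channel of smooth muscle, was below the floor in all ovary-derived cells. Set against the floor, its mesonephros-derived mean was 1.93-fold higher, with 525 in replicate 3 and 103 to 157 in the other 2. Its log2 change was 1.14, or 0.50 to 1.60 with 1 array left out. The 95% interval of −0.17 to 2.46 includes 0 (limma adjusted p = 0.413). Ptgdr, a prostaglandin D receptor, stood at 1.0 ± 0.51 (SE), and at −0.19 with the spike covariate.

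Among other vasoactive ligands and their enzymes 5 of 8 tested genes stood higher, or 6 after quantile normalization or median centring, limma called 0, and 3 had an unadjusted p under 0.05. Ptgis, the prostacyclin synthase, read 2813, 2277 and 2739 against 1608, 1371 and 1072, at 0.96 ± 0.22 (SE, limma adjusted p = 0.212). Tbxas1, the thromboxane synthase, read 731, 715 and 462 against 240.2, 335 and 311, at 1.05 ± 0.32. Ddah2, which removes an inhibitor of nitric oxide synthesis, read 561, 412 and 1066 against 1334, 1437 and 1156, at −1.04 ± 0.35, or 0.16 with the spike covariate. Oxt, the oxytocin precursor, stood at 0.68 ± 0.32. Groups did not overlap for any of these 4 (22.2% of all genes), and none of them passed the threshold.

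**Figure D5:**
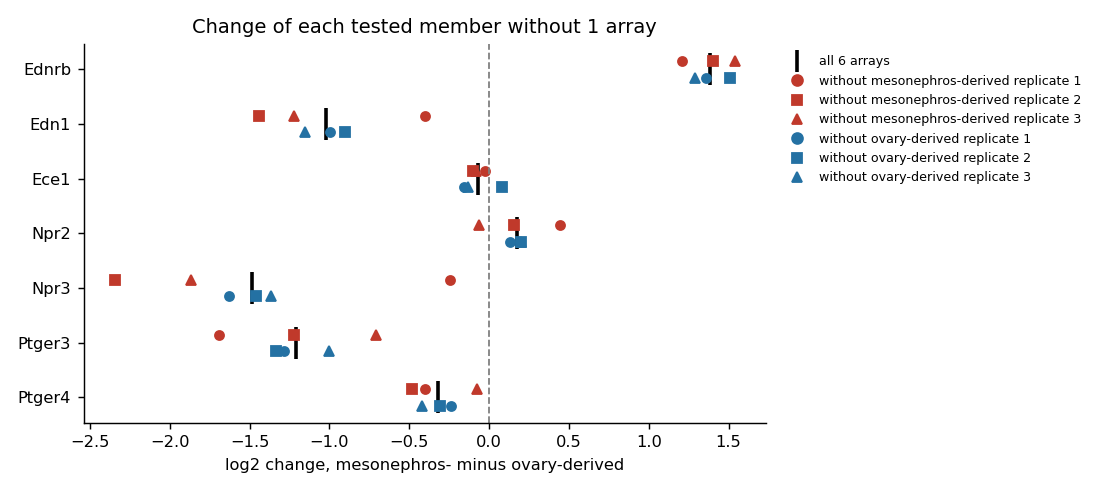
Log2 change of the 7 tested members with all 6 arrays (black bar) and with each array left out in turn (symbols). Ednrb stays between 1.21 and 1.54, while Edn1 and Npr3 come closest to 0 without mesonephros-derived replicate 1 and Ptger3 without mesonephros-derived replicate 3.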

How the data were processed

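RNA of the sorted cells was amplified from a fixed volume, per the labels' protocols, and read on 1-colour arrays. The deposited values are linear probe set intensities made with MAS5, per the submitters' processing notes. Every array had a mean of 500.0 after trimming 2% at each end, so no further scaling was applied. Values were moved to log2(signal + 16). For a gene with several probe sets, the one brightest on average over the 6 arrays stood for it, and means below the 40th percentile were not tested. The group comparison used limma 3.58.1 under R 4.3.3 (eBayes with an intensity trend, Benjamini-Hochberg over all genes, threshold 0.05). A second limma fit covered all probe sets. The code was tested on simulated data. Of 18193 gene symbols, 18031 matched a RefSeq table (GRCm38.p6), which changed 0 of them.

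The members and gene lists were chosen with earlier results of these data known. Pathway genes named in the text are the 4 with the smallest unadjusted p in each list, profiles alike are the 3 nearest genes of the 3 members with the smallest p, and markers are among the first 4 of their lists. Nppc, C1qb, C1qc, Lyz2, markers below the floor, and the remaining theca markers were named outside this rule. If a whole group was below the floor, the fold is a bound that sets the floor, or the dim array's own signal if higher, against the brighter mean. It bounds the ratio of the means of these arrays and takes no account of their spread. The labels number the samples but do not say whether they are separate animals. A p-value therefore reflects only how far these samples vary, which could be technical variation. The number of arrays limits the precision.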

Additional observations from a re-analysis of the deposited data

How the results depend on the processing

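Alternatives were pseudocounts of 1 and 64, no floor, a floor at the 60th percentile, median centring, quantile normalization, other ways to choose probe sets, other variance models, array weights, spike controls as a covariate, a replicate block, and leaving out each array. The probe set and floor of each gene were kept unless the alternative concerned them. Of the members, 0 passed the threshold in all of these except array weights, where 1 did (Ednrb), among 129 of all 11703 genes. A plain test with equal variances, eBayes without the trend and the spike covariate called 0 of all genes. So did leaving out mesonephros-derived replicate 3 or any 1 ovary-derived array. There a count of 0 says nothing about the members. Over probe sets 0 passed except without mesonephros-derived replicate 1, where 1 did (Ednrb 1423594_a_at), a range of 0 to 1. Same-numbered arrays did not deviate together (r of −0.000479, 0.0711 and −0.010), so the numbers were not read as pairs. With the replicate block 0 members passed and Ednrb kept its log2 change of 1.38 (limma adjusted p = 0.153). In the fits over genes Ednrb, Edn1, Npr3, Ptger3 and Ptger4 kept their direction in every alternative that tested them. There Ptger3 ranged from −2.92 with the spike covariate to −0.23 as the mean of its probe sets. Single probe sets held less well. Npr3 1448024_at turned in 7 of 18 settings, Ece1 1441423_at in 2 and Ptger4 1421073_a_at in 1. Ptger3 1425251_at stood at 0.75 and turned in 1 of 17 settings, to −1.15 with the spike covariate. With the spike covariate Edn1 stood at −0.26, Npr2 at 0.85, Npr3 at −0.54 and Ptger4 at −0.90. Ece1 turned to 0.0086 after median centring and to 0.018 with the spike covariate, and lay between −0.15 and 0.080 with 1 array left out. Npr2 lay between −0.066 and 0.44 with 1 array left out. Ptger3 minus Ptger4 turned to 0.18 as the mean of probe sets. Agtr1a minus Agtr2 lay between −0.31 and 1.98 with 1 array left out. The Ednra minus Ednrb pair was not run. The cause of these shifts was not tested.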
